A study of Homo sapiens with 4 samples.

Results

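RNA immunoprecipitation sequencing placed 19 peaks in MSI2, the gene of the RNA-binding protein Musashi-2, out of 14149 peaks in the deposited list. A peak was counted as an MSI2 peak when the RefSeq transcript named in its annotation belongs to MSI2, whatever nearest gene the list gives. The material was MDA-MB-231, an established human triple-negative breast cancer cell line grown in DMEM. RNA was pulled down from lysate either with mouse antibodies against HuR (2 samples) or with mouse IgG as the control (2 samples), and the methods describe the samples as biological duplicates. All 4 libraries were made with the TruSeq RNA Library Prep Kit v2, without poly(A) selection. The list holds a single score per peak for the whole series and no value for a sample, so neither an enrichment of MSI2 over IgG nor a spread between replicates can be given, and the depth of each library is unknown.

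Musashi-2 carries a tandem pair of RNA-recognition motifs, binds short UAG-containing sites in the 3′-UTRs of mRNAs, and changes their translation and stability. It is known as a regulator of stem and progenitor cells and is often raised in leukaemia and in carcinomas. HuR, encoded by ELAVL1, is another RNA-binding protein of the RRM class, which recognises AU-rich and U-rich stretches and is known for stabilising mRNAs.

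MSI2 lies on the + strand of chromosome 17 (hg38, 57255851 to 57684689, 428839 bp, Ensembl gene ENSG00000153944). Its canonical transcript in GENCODE 44 has 14 exons, of which 13 hold coding sequence and exon 14 holds 5141 bp of 3′-UTR. Introns make up 98.5% of the span of that transcript, and the longest, intron 5, is 139186 bp. Exons are numbered here by this transcript.

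The 4 coding exons with the highest summed peak scores are shown in genomic + strand sequence of hg38, since most peaks outside the 3′-UTR began or ended inside such short exons. Capitals mark the bases that lie inside the peak on the + strand. Exon 4 codes for part of the first RNA-recognition motif, and exon 6 opens the second.
exon 4, chr17:57258270-57258354: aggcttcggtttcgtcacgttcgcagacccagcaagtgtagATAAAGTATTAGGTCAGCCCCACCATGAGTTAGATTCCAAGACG
exon 6, chr17:57401379-57401471: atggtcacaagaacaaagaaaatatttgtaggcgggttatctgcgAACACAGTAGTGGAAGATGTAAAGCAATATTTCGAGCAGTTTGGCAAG
exon 9, chr17:57615970-57616084: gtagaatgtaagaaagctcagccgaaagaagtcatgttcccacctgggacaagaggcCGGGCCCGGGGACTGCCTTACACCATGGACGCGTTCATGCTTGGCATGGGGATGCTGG
exon 12, chr17:57674972-57675126: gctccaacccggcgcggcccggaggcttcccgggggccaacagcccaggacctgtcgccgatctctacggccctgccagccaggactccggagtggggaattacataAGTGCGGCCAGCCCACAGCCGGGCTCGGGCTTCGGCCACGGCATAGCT
In exon 4, the + peak took in the last 44 of 85 bases and a second peak, on the − strand, the first 42. In exon 6, the + peak held 48 of 93 bases and the − peak 47. In exon 9, the + peak held 58 of 115 bases, and the other 57 were in no peak. In exon 12, the + peak held 48 of 155 bases and the − peak 53, with 54 bases between them in neither.

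The strongest MSI2 peak lay in the 3′-UTR, and 4 sites of 30 bases from it are shown because it contains runs of at least 5 T, the DNA letters of a U-rich stretch. Capitals mark the T run, and the strand is that of the mRNA.
site 1, chr17:57680174-57680203: ttctagcagttcTTTTTgtgatgtctcttt
site 2, chr17:57680269-57680298: ttctataagtgcTTTTTTTctgttgaaaga
site 3, chr17:57680302-57680331: gatattataaggTTTTTTgaaattgtgaat
site 4, chr17:57680394-57680423: gaatcaaaaataTTTTTgtgagggagtcgg
The runs were 5, 7, 6 and 5 bases long, and these were all the runs of that length in the peak.

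Of the 19 peaks, 17 were annotated as intronic, 1 as promoter-TSS and 1 as 3′-UTR. The intronic share was 89.5% (Wilson 95% interval 68.6% to 97.1%), against 61.9% of the whole list. There were 11 peaks on the + strand, which is that of MSI2, and 8 on the − strand. The strand is the one given in the list. Whether it follows the strand of the RNA was not tested, so a − peak is not read here as antisense RNA. Nor is a difference in score between + and − peaks read as a trait of MSI2 RNA. The + share was 57.9% (36.3% to 76.9%), beside 50.4% of the list. The list value counts the + strand of the genome, over genes of either strand, and is not a share on the strand of the gene. Every peak was 347 bp long, and merging those that overlapped left 14 loci.

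The lowest MSI2 peak scored 12.7 and the highest 164.7. The median was 35.5, and the quartiles were 22.2 and 42.4. The score is the peak caller's own value, whose scale the authors did not state. Low scores lay on whole multiples of 0.245, and if 1 step stands for 1 sequenced tag, the MSI2 peaks held 52 to 673 tags. The 95% intervals on scores below are exact Poisson intervals on those steps and cover counting error only. The median of the whole list was 34.0 and its upper quartile 83.4. Of the MSI2 peaks, 11 reached that median and only the 3′-UTR peak passed that quartile.

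The 3′-UTR peak (chr17:57680122-57680468, − strand) scored 164.7 (152.5 to 177.6) and held 20.8% of the summed score of 793.4. It was 2.35 times the next peak, at exon 9, with a 95% interval of 2.05 to 2.71. Taken down the order of scores, 15 of the 18 ratios between neighbouring peaks had an interval that held 1. Besides the first, the exceptions were 55.6 over 43.1 (1.29, 1.05 to 1.58) and 25.7 over 18.8 (1.36, 1.01 to 1.85). The exon 9 peak (chr17:57616027-57616373, +) scored 70.0 (62.1 to 78.6) and was the second of the gene. Among the 2062 peaks of the list annotated as 3′-UTR, the median score was 65.4, and 25.3% scored higher than the MSI2 peak.

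The first exons of MSI2 were densely marked. A stretch of 5690 bp from exon 1 to just past exon 5 held 7 of the 19 peaks and 28.5% of the summed score. The peak annotated as promoter-TSS (chr17:57256875-57257221, +) scored 40.1 (34.2 to 46.8), and its centre lay 35 bp from the start site of the short transcript NM_170721. It began 71 bp past the end of exon 1 and contained the whole of exon 2, which is 41 bp long. At exon 3, the − peak (chr17:57257166-57257512) scored 12.7 (9.5 to 16.7), the lowest of the gene, and the + peak (chr17:57257503-57257849) scored 35.5 (29.9 to 41.8).

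At exon 4, the − peak (chr17:57257965-57258311) scored 33.5 (28.1 to 39.6) and the + peak (chr17:57258311-57258657) scored 59.5 (52.2 to 67.4), the third of the gene. At exon 5, the − peak (chr17:57261822-57262168) scored 13.7 (10.4 to 17.8) and the + peak (chr17:57262218-57262564) scored 31.1 (25.9 to 37.0). In this 5′ stretch the + peak had the higher score at each of the 3 exons with a pair.

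The middle of the gene, where the introns are longest, held peaks only beside exons. Exon 6 had a − peak (chr17:57401079-57401425) of 41.6 (35.6 to 48.3) and a + peak (chr17:57401424-57401770) of 43.1 (36.9 to 49.9). Exon 7 had a − peak (chr17:57529351-57529697) of 36.7 (31.1 to 43.1), annotated at an L1ME4a LINE, and a + peak (chr17:57529699-57530045) of 18.4 (14.4 to 23.0), annotated at a Tigger19a element. Exon 8 had a − peak (chr17:57596563-57596909) of 35.0 (29.5 to 41.2) and a + peak (chr17:57596903-57597249) of 25.7 (21.0 to 31.1). At exons 7 and 8 the − peak was the higher, unlike at exons 3 to 5.

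Exons 9, 10 and 11 had a + peak and no − peak. The exon 10 peak (chr17:57627264-57627610) scored 18.8 (14.9 to 23.6), and the exon 11 peak (chr17:57652130-57652476) scored 18.1 (14.2 to 22.7). The exon 9 score was 3.71 times that of exon 10 (2.88 to 4.84), whereas exons 10 and 11 had a ratio of 1.04 with an interval that held 1 (0.746 to 1.45). The exon 9 peak was the third MSI2 peak annotated at a repeat, a MIRb SINE. At exon 12, which encodes part of the region after the RNA-recognition motifs, the − peak (chr17:57674678-57675024) scored 39.6 (33.8 to 46.2) and the + peak (chr17:57675079-57675425) scored 55.6 (48.6 to 63.3).

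**Figure D1:**
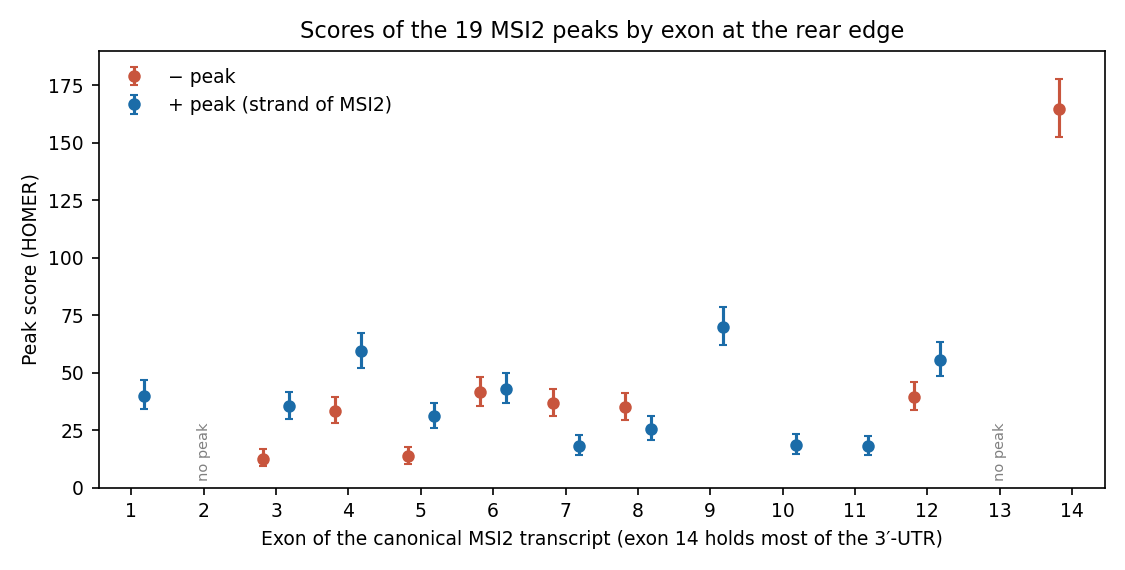
Peak score (y axis, HOMER units) of the 19 MSI2 peaks by the exon of the canonical transcript nearest their rear edge (x axis), with blue points for the + strand, red points for the − strand and bars for exact Poisson 95% intervals on score steps. The exon 14 point at 164.7 stands above all others, which lie between 12.7 and 70.0, and exons 2 and 13 have no peak of their own, although exon 2 lies inside the peak drawn at exon 1.

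Pairs of opposite strands flanked 7 exons, and the + peak was higher in 5 of them. The ratio of the − to the + score was 0.359 (0.256 to 0.495) at exon 3, 0.564 (0.454 to 0.698) at exon 4 and 0.441 (0.316 to 0.608) at exon 5. It was 0.966 (0.778 to 1.2) at exon 6, the only pair whose interval held 1. It was 2.0 (1.51 to 2.68) at exon 7, 1.36 (1.05 to 1.77) at exon 8 and 0.714 (0.58 to 0.877) at exon 12. The centres of the paired peaks lay 337 to 401 bp apart, with a median of 346 bp, which is close to 1 peak length.

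The label of most of these peaks, intron, described the centre of the peak. The rear edge of a peak is taken here as its first base in the direction of its own strand. By centre, 18 peaks lay in an intron of the canonical transcript and 1 in the 3′-UTR. By rear edge, 16 lay in a coding exon, 2 in an intron and 1 in the 3′-UTR. Thus 17 of 19 rear edges were exonic (89.5%, 68.6% to 97.1%), compared with 76.6% of the 13707 peaks of the list that could be placed. By the opposite edge, 18 were again in an intron. The 2 rear edges in introns belonged to the promoter-TSS peak and to the + peak of exon 5, which began 26 bp past that exon.

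The 16 exonic rear edges fell near the middle of their exons, which were 42 to 155 bp long. The median distance from rear edge to exon midpoint was 1.5 bp, and 14 of the 16 lay within 10 bp. The 2 exceptions were the pair at exon 12, the longest of these exons, at 25 and 30 bp. Over 3229 peaks of other genes with a rear edge in internal exons of the same range of lengths, the median distance was 3.0 bp and 72.9% lay within 10 bp, so this placement was common to the list. Every one of the 11 + peaks had its centre 3′ of the exon midpoint, and each of the 7 − peaks outside the 3′-UTR had it 5′. How reads were shifted or extended before peak calling is not stated, and its part in this placement was not tested.

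**Figure D2:**
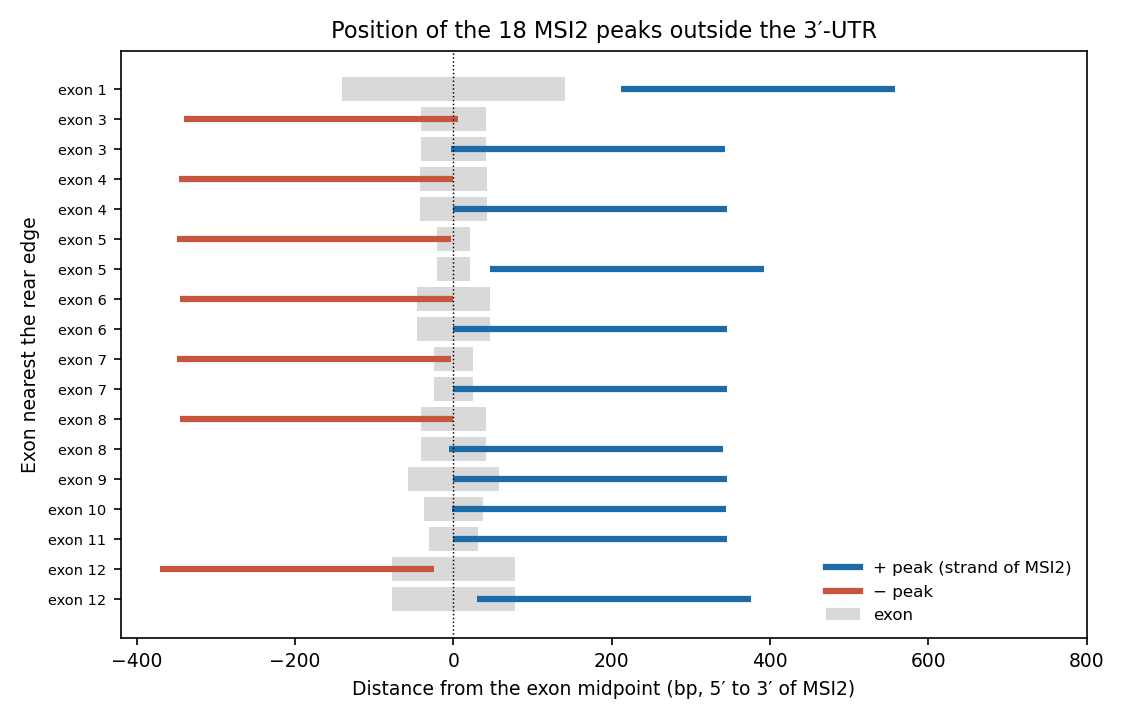
Position of the 18 MSI2 peaks outside the 3′-UTR relative to the midpoint of the exon nearest their rear edge (x axis, bp, 5′ to 3′ along MSI2; 1 row per peak), with + peaks in blue, − peaks in red and the exon in grey. Of these, 16 begin inside the exon, 14 of them within 10 bp of its midpoint, and + and − peaks run out to opposite sides.

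Measured by length, the peaks covered 1.3% of the intronic bases of MSI2, 69.2% of the coding bases (681 of 984 bp) and 6.75% of exon 14. In all, 10 of the 13 coding exons (76.9%) held a rear edge. The median over 3070 genes with a coding model and a peak was 11.8%, and 3.16% of those genes had a higher share. Among 830 such genes with 10 to 16 coding exons, the median was 10.0% and 5 genes (0.602%) were higher. Those 830 genes had a median of 3 peaks, against 19 for MSI2, and the part of peak number in this share was not tested. Of the genes named below as close to MSI2 in peak number and highest score, ACBD3 held a rear edge in 8 of 8 coding exons. RSRC1 did so in 8 of 9, FBXW11 in 7 of 13 and MED13 in 10 of 30. Exon 13, which contains the stop codon, overlapped no peak, and nor did exon 1.

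The short form of MSI2 that starts at 57257013 has 10 exons and shares exons 3 to 10 with the canonical transcript, but ends in a last exon of its own of 1110 bp. No peak overlapped that exon. The 3′-UTR peak lay from 574 to 920 bp of the 5141 bp exon 14 of the canonical transcript. It also overlapped the last exon of 5 other annotated protein-coding forms, 1 of which, ENST00000442934, ends inside the peak at 57680297. A further form, ENST00000416426, ends at 57680121, immediately before its first base. The list does not tell which of these forms carried the reads.

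The AU-rich pentamer ATTTA and its longer form TATTTAT were counted on the strand of the mRNA in exon 14, together with runs of at least 5 T. ATTTA occurred 14 times in exon 14 (2.72 per kb) and 0 times in the peak. All 14 lay 3′ of the peak, and the nearest was 182 bp past its end. TATTTAT occurred 1 time in the exon and not in the peak. Runs of T occurred 40 times (7.78 per kb), of which 4 lay in the peak (11.5 per kb), at the sites shown above. Over the 4795 windows of that length in the exon, the median was 3 T runs with a maximum of 6, and the median of ATTTA was 1 with a maximum of 4. With the peak moved back against its strand until its centre stood at its rear edge, only sites 3 and 4 stayed inside and ATTTA was again absent. The moved peak thus held 2 T runs, fewer than the window median of 3. Its T content was 28.5%, against 35.2% in the peak as listed and 33.7% in the exon. A match of letters is a description and not a binding site.

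**Figure D3:**
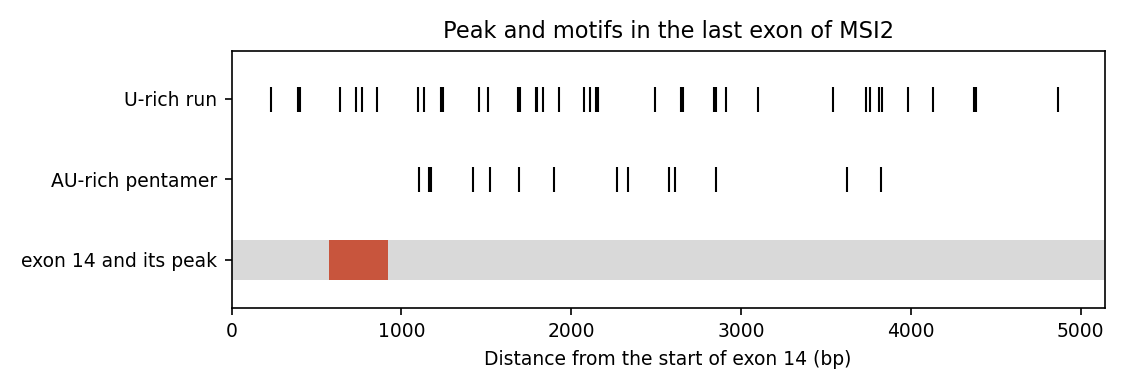
Exon 14 of MSI2 (grey, x axis in bp from its start) with its single peak (red) and the positions of the AU-rich pentamer ATTTA and of runs of at least 5 U in the mRNA. The peak spans 574 to 920 bp and contains 4 U-rich runs, while all 14 pentamers lie 3′ of it.

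On the strand of MSI2, ATTTA was found in 5 of the 19 peaks (26.3%, 11.8% to 48.8%), against 50.6% of 13707 peaks of the list, each read on the strand of its own gene. The 5 were the + peaks of exons 3, 4, 6 and 9 and the − peak of exon 5, and the exon 9 peak also held TATTTAT. Runs of at least 5 T occurred in 13 of 19 (68.4%, 46.0% to 84.6%), beside 68.5% of the list. The median GC content was 48.7% in the MSI2 peaks and 38.3% in the list. The lower share of ATTTA thus went with a higher GC content, and the part of GC content in it was not tested. These motif counts used the peaks as listed, in which 5489 of the 6517 covered MSI2 bases were intronic.

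Among the 3313 genes with a peak, MSI2 stood higher by number of peaks than by score. Only 37 genes had more than 19 peaks, and 14 others had the same number, while the median gene had 2. By its highest score MSI2 ranked 447, with 13.5% of genes higher, and by summed score it ranked 366. MSI2 is a long gene. The 108 genes over 400000 bp had a median of 3 peaks, and 1 of them had more than MSI2. The part of gene length in the number of peaks was not tested.

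Of 57 genes with 17 to 21 peaks, those closest to MSI2 in highest score included FBXW11 (20 peaks, 170.1), MED13 (17 peaks, 158.8), RSRC1 (17 peaks, 158.1) and ACBD3 (17 peaks, 181.3). Their highest scores differed from that of MSI2 by -0.06 to 0.14 on the log2 scale. Their median scores were 67.8 for FBXW11, 91.0 for MED13, 68.0 for RSRC1 and 102.8 for ACBD3, all above the 35.5 of MSI2. The measure of likeness used the number of peaks and the highest score only.

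**Figure D4:**
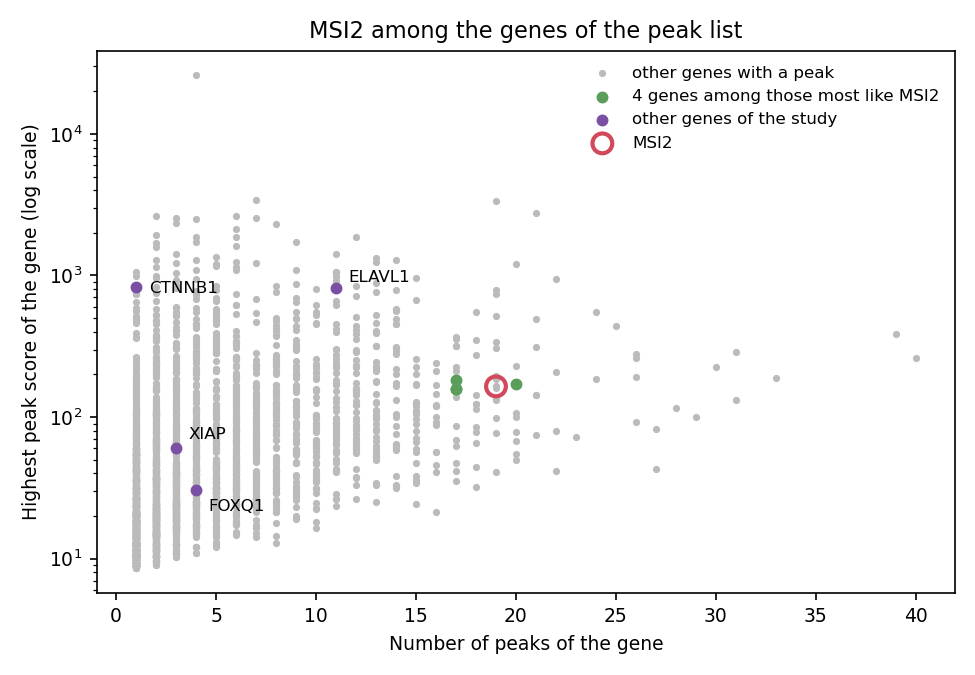
Number of peaks (x axis) and highest peak score (y axis, log scale) of each gene with a peak. MSI2 (red ring, 19 peaks, 164.7) lies far to the right of the median of 2 peaks, with 4 genes among those most like it (green) beside it, and ELAVL1 and CTNNB1 (purple) higher on the score axis.

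Relatives, partners and described targets of Musashi proteins were looked up by the same host-gene rule. Of all 20056 protein-coding RefSeq genes, 15.4% had at least 1 peak. Of 10 RNA-binding proteins with a related tandem RRM structure, 1 had a peak (10.0%). It was HNRNPA0, an hnRNP encoded by a single exon, with 1 peak of 591.5 (chr5:137753506-137753852). The paralogue MSI1 had none, and neither did HNRNPA1, HNRNPA2B1, HNRNPA3, HNRNPAB, HNRNPD, HNRNPDL, DAZAP1 or TARDBP. None of the 7 protein partners (PABPC1, PABPC4, SYNCRIP, LIN28A, LIN28B, GSPT1 and EIF4G1) had a peak. A gene without a peak in this list may still be transcribed or bound.

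Of 10 mRNAs described as Musashi targets, 5 had a peak. JAG1, a Notch ligand, had 6 peaks with a highest score of 97.9. TGFBR1, the type I TGF-β receptor, also had 6, up to 52.1, and all were annotated as intronic. SMAD3, which carries the signal of that receptor to the nucleus, had 2 peaks, up to 25.9. The proto-oncogene MYC had 3 peaks of 186.0 to 335.3, so each exceeded the best MSI2 peak. IKZF2, a transcription factor of the Ikaros family, had 2 peaks, up to 20.8. NUMB, CDKN1A, HOXA9, LRIG1 and ESR1 had none. These lists are short and were not tested.

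Of 5 genes that the study discusses beside MSI2, 4 had a peak. The study picked FOXQ1 with the help of its RIP-seq and also counts CTNNB1 among the genes found there, so neither is independent of these data. CTNNB1, which encodes β-catenin, had 1 peak of 834.0, and ELAVL1 itself had 11, up to 812.0, with a median of 375.9. XIAP, an inhibitor of apoptosis, had 3 peaks, up to 60.7, and the transcription factor gene FOXQ1 had 4, up to 30.6. The highest MSI2 score therefore lay below those of CTNNB1 and ELAVL1 and above those of XIAP and FOXQ1. BCL2, another inhibitor of apoptosis, had no peak by this rule. The paper names BCL2, MSI2 and XIAP as HuR targets known before. It also reports that the HuR inhibitor KH-3 shortened the half-lives of their mRNAs in MDA-MB-231. In the same cells, knocking out HuR lowered the protein levels of BCL2, MSI2 and XIAP. A separate immunoprecipitation assay there found 3 target mRNAs enriched with HuR antibody over IgG, and KH-3 disrupted this binding. The paper's text does not name these mRNAs at that point. The peak list has no IgG contrast to set beside that result.

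The nearest-gene column of the list named MSI2 for 7 of its 19 peaks. It gave the non-coding loci LOC101927539 for 7 and LOC101927557 for 4, and CCDC182 for 1. That column follows the nearest start site, and all 19 centres lay inside the annotated MSI2 gene, with no peak of another host gene among them.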

How the data were processed

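RNA immunoprecipitated with antibodies against HuR (2 samples) or with mouse IgG (2 samples) was sequenced. The authors aligned reads with STAR to hg38 and called peaks with HOMER. Versions, thresholds and any pooling of replicates are not given in the sources used here. The methods name ANNOVAR for annotation, while the file header holds a HOMER annotation command. The deposited list gives 1 peak score, whose scale the authors did not state, 1 focus ratio, a fraction per the file headers, and other values such as the distance to a start site. It holds no value for a single sample, so library depth is unknown and the planned count-based test of HuR against IgG could not be made.

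Peaks were assigned to the gene of their RefSeq transcript and placed in the canonical GENCODE 44 transcript (hg38, 1-based coordinates). Of 11121 scores under 100, 99.2% lay within 0.05 of a multiple of 0.245, against 39.3% by chance. Intervals on scores are exact Poisson and on shares Wilson, both at 95%. The Poisson intervals cover counting error only, and reads carry no molecular identifiers. The Wilson intervals treat peaks as independent draws, although 7 exons of MSI2 had a pair of peaks. They describe a share and are not a test against the list. Ratios of scores have intervals from the binomial split of their steps. No test was made over peaks or genes, which are not replicates.

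Named are MSI2, Musashi relatives, partners and described targets, genes the study discusses, and, of genes within 2 peaks of MSI2, the 5 nearest in log2 highest score. From the targets and from these 5, 1 gene each is not reported here. Members, lists and measures, the rear edge included, were chosen with earlier results of these data known. Motifs were searched on the sense strand only, and each TATTTAT also holds ATTTA. Alternatives covered the host-gene rule, a score minimum, merging, the position that stands for a peak, and the rank measure. Functions were tested on simulated data. Python 3.11.15, numpy 2.4.6, scipy 1.17.1, pandas 2.3.3 and matplotlib 3.10.9 were used.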

Additional observations from a re-analysis of the deposited data

How the results depend on the processing

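The count of 19 MSI2 peaks fell to 7 by the nearest-gene column and to 11 with scores at or above the list median, but was 19 by gene body and 14 after merging. The intronic share of 89.5% fell to 10.5% by the rear edge and to 0.0% when overlap with any annotated exon counted as exonic. It was 94.7% by centre in the canonical transcript and 81.8% among peaks at or above the list median. The rank of MSI2 by highest score, 447, became 38 by number of peaks and 1291 by the nearest-gene column, and 366 by summed score. Across the alternatives run, the share on the gene's strand was 54.5% to 64.3% and the median score 33.5 to 38.2. No paired analysis was possible because scores were deposited for the series as a whole and not per library, so leaving out replicates and the test of HuR against IgG were not run either. Depth is unknown, and intervals on scores and on their ratios rest on reading 1 score step as 1 tag.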
